A study of Arabidopsis thaliana with 22 samples.

Results

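The genotype effect of a MYB67 mutant on mature Arabidopsis thaliana roots was measured in the experiment numbered 2 of a study that ran its comparison in 2 experiments. The libraries were taken by the experiment number in their titles, which gave 10 of the 22 libraries, 5 of wild type (WT, accession Col-0) and 5 of the line labelled myb67. The growth notes name a single allele, myb67-1, so the mutant is represented by 1 line. Both genotypes grew side by side for 14 days on plates of Murashige and Skoog salts with agarose, with no treatment. Each library is bulk RNA from the top 1.5 cm of the primary root below the hypocotyl, freed of lateral roots and pooled from about 40 seedlings. The other 12 libraries, 6 per genotype from experiment 1, hold the same tissue, age and genotypes, and are used only to set the effects beside libraries that share no sample with experiment 2.

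This stretch of the root is where growth in girth begins. The cambium divides, the endodermis gives way, and the outermost layer becomes phellem (cork), whose walls carry suberin, a polyester of fatty acids, fatty alcohols, glycerol and ferulate that limits the passage of water and solutes. Suberin monomers are made at the endoplasmic reticulum by hydroxylases, elongases, reductases and acyltransferases and are exported by ABC transporters of subfamily G, and several transcription factors of the R2R3 MYB family, to which MYB67 belongs, switch those genes on. The title of the series ties MYB67 to the maturation of phellem, and the comparison asks which transcripts differ in the whole tissue without intact MYB67. In bulk RNA, fewer cells of a type and less RNA per cell cannot be told apart.

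The libraries held 23190477 to 32091009 counts and 29026 to 31259 genes with a count. Levels are given as CPM, counts scaled to a common library total, adjusted between libraries by TMM factors of 0.983 to 1.02, with the SD between 5 libraries. They are not divided by transcript length, so they are compared between libraries and not between genes. Differences are log2 fold changes of libraries labelled myb67 over WT, with a standard error (SE) derived from the test, and a call means a p under 0.05 in the quasi-likelihood test of edgeR, after Benjamini-Hochberg adjustment across the 22002 genes tested. Libraries with the same replicate number deviated from their genotype means together. The correlation of those deviations across genes was 0.638, 0.391, 0.476, 0.31 and 0.156 for replicates 1 to 5. For that reason the comparison was fitted without and with the replicate number as a pair term. A gene called without pairs is given with the values of that fit, and all such genes were also called with pairs. A gene that passed the test with the term and not without it is named as such, with the values of the fit with pairs. On the leading principal component, which held 36.3% of the variance, the libraries numbered 1 and 3 of both genotypes lay on one side and the other 6 libraries on the other. Defining markers of the tissue were present in WT, with 211 ± 28.3 CPM for the cambium receptor PXY, 69.6 ± 5.23 for the xylem wall gene CESA7, 75.0 ± 14.2 for the phloem sucrose carrier SUC2, 57.2 ± 12.2 for the suberin gene GPAT5 and 15.5 ± 10.6 for CASP1 of the Casparian strip (SD, n = 5). In libraries labelled myb67 the same markers had 244 ± 26.3, 73.0 ± 11.6, 74.0 ± 9.01, 77.1 ± 6.14 and 10.97 ± 8.40 CPM, and none of the 5 passed without pairs. With pairs PXY (0.21, SE 0.04, adjusted p = 0.00861 by edgeR) and GPAT5 (0.45, SE 0.08, adjusted p = 0.00646 by edgeR) were higher. WOX5, which marks the centre of root tips, had 0.788 ± 0.320 and 0.845 ± 0.213 CPM. The mean log2 CPM of the 9 tested genes of lateral roots and root tips, a tissue that was cut away, was between 0.29 and 1.01 in every library.

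MYB67 transcript did not fall in the libraries labelled myb67. MYB67 (AT3G12720, chr3:4043288-4044715, minus strand of TAIR10.1) had 14.0, 12.6, 11.98, 9.11 and 6.95 CPM in WT replicates 1 to 5 and 15.8, 15.1, 19.9, 24.6 and 17.7 CPM in myb67 replicates 1 to 5. Every library labelled myb67 lay above every WT library. The log2 fold change was 0.77 (SE 0.19, adjusted p = 0.151 by edgeR) without pairs, which did not pass the test, and 0.77 (SE 0.17, adjusted p = 0.0155 by edgeR) with pairs, a call that was lost without pair 3, 4 or 5. In experiment 1 the fold was 0.82 (edgeR adjusted p = 0.000287). Where the allele lies in the gene is not in the labels, so the reads of MYB67 cannot check the genotype. All directions that follow are therefore those of the libraries labelled myb67.

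Without pairs, 136 of the 22002 genes were called (0.618%), 65 of them higher (0.295%) and 71 lower (0.323%) in the libraries labelled myb67. Among these, 32 of the 65 and 37 of the 71 were at least 2-fold, and the median log2 fold changes were 0.93 and -1.02. The groups did not overlap for 64 of the 65 and for all 71. Over all genes tested, the 5 myb67 libraries lay above the 5 WT libraries for 202 genes (0.918%) and below them for 199 (0.904%). With pairs in the model, 1627 genes were called (7.39%), 659 higher (3.00%) and 968 lower (4.40%), and these included all 136. Most of the 1491 further genes had small folds. Of the 594 higher ones, 523 differed less than 1.5-fold, as did 711 of the 897 lower ones. At an unadjusted p under 0.05 the counts were 1577 without and 4176 with pairs. The count without pairs was 77 without myb67 replicate 3, 82 without WT replicate 3, 83 without WT replicate 5 and 87 without WT replicate 2. The count with pairs was 1059 without pair 3 and 1032 without pair 5, and 753 without both pair 4 and pair 5, the pairs of lowest correlation. Some libraries of different number deviated together more than pair 5 did, with 0.371 for WT 3 with myb67 1, 0.337 for WT 4 with myb67 5, 0.334 for WT 2 with myb67 4, 0.315 for WT 5 with myb67 4 and 0.228 for WT 4 with myb67 2. All but the last of these also exceeded the 0.31 of pair 4. Among the higher genes alone, the 65 without pairs also became 34 without WT replicate 4 and 42 without myb67 replicate 4.

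The called genes were set beside experiment 1, which shares no library with experiment 2. Of the genes called without pairs, 54 of the higher ones were tested in experiment 1 and 53 had the same sign there, with 26 called. Among the lower ones 61 of 62 had the same sign, with 24 called. Of the genes called with pairs only, 245 of 574 higher ones and 367 of 868 lower ones had the same sign in experiment 1. Their median log2 fold changes there were -0.04 and 0.03, beside 0.29 and -0.39 in experiment 2 and beside -0.01 over all genes tested in experiment 1. In the same direction, 37 of the higher and 15 of the lower ones were called in experiment 1, and 3 of each were called in the opposite direction. In experiment 1 alone, 180 of 20183 genes were called (0.892%). A test of the difference between the experiments called 15 of 21683 genes (0.0692%), and 573 (2.64%) with the pairs of experiment 2 in the model, of which 82 were among the higher and 326 among the lower genes called with pairs only.

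**Figure D1:**
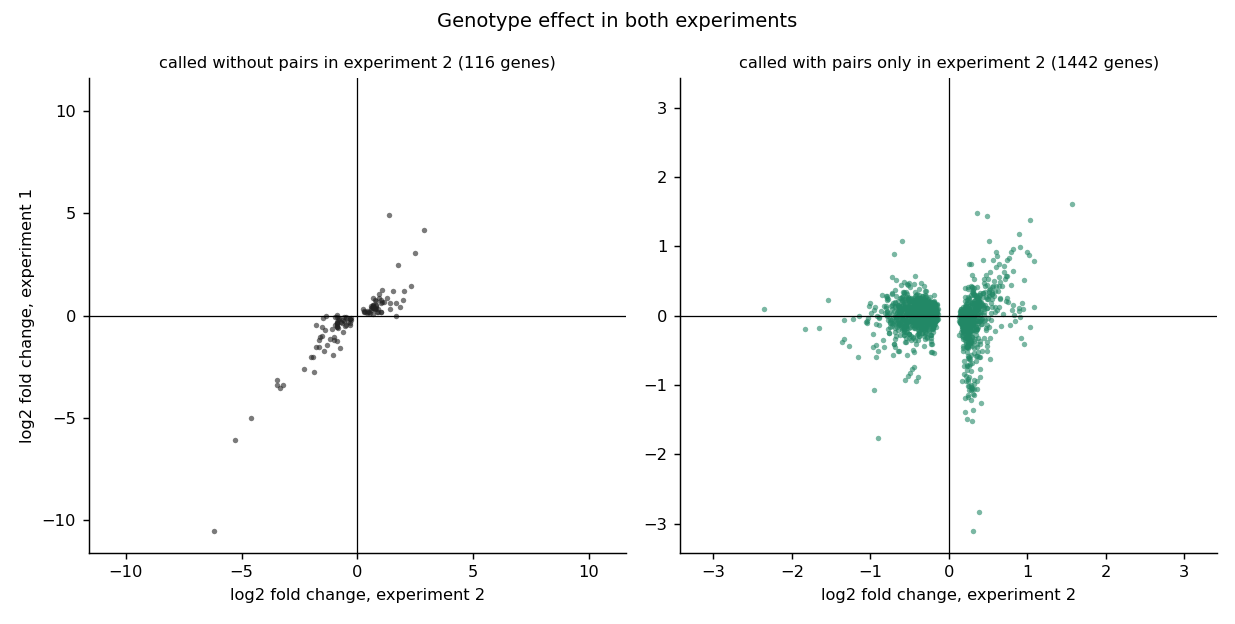
Log2 fold change of libraries labelled myb67 over WT in experiment 2 (horizontal axis, fit without pairs) and experiment 1 (vertical axis), one point per gene tested in both, for the 116 genes called without pairs (left) and the genes called with pairs only (right), with axes of different range. The points on the left lie in the quadrants of equal sign except 2, and those on the right lie on both sides of 0 in experiment 1, with medians of -0.04 and 0.03.

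The largest fall was that of MRD1 (AT1G53480, chr1:19963047-19964712, minus strand), a gene named for its response in a methionine overproducing mutant. It had 50.1, 54.0, 55.9, 52.5 and 57.2 CPM in WT replicates 1 to 5 and 0.268, 2.44, 0.878, 0.157 and 0.116 CPM in the libraries labelled myb67. Replicate 2 held most of what was left, and its count there was 58 reads beside 3 to 20 in the other 4. The log2 fold change was -6.21 (SE 0.45, adjusted p = 4.15e-05 by edgeR). HEI10 (AT1G53490, chr1:19963267-19966952, plus strand), a RING protein known from meiotic crossover formation, overlaps MRD1 on the opposite strand and had 48.3 ± 2.05 CPM (SD, n = 5) in WT and 4.45 ± 1.06 CPM in libraries labelled myb67, which is -3.45 (SE 0.13, adjusted p = 3.13e-07 by edgeR) on the log2 scale. The use of strand in counting is not stated, so reads of these genes cannot be told apart.

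MYB69 (AT4G33450, chr4:16095392-16096774, minus strand), an R2R3 MYB gene known from secondary wall networks, was close to undetected in the mutant line. Its WT libraries held 4.52, 6.36, 5.43, 4.74 and 5.31 CPM and the libraries labelled myb67 held 0.0384, 0.252, 0.220, 0.0313 and 0.155 CPM, which is 1 to 6 reads each. The groups lay far apart, with a log2 fold change of -5.27 (SE 0.33, adjusted p = 1.75e-05 by edgeR). The cytochrome P450 gene CYP702A6 (AT4G15396, chr4:8807483-8810512, plus strand) had 27.2, 26.6, 25.9, 16.2 and 16.4 CPM in WT and 0.844, 1.81, 1.098, 0.501 and 0.503 CPM in libraries labelled myb67. WT replicates 4 and 5 were the lowest of their group and still lay far above every library labelled myb67, and the log2 fold change was -4.59 (SE 0.31, adjusted p = 2.34e-05 by edgeR). AT3G58550 (chr3:21649364-21650347, minus strand), which encodes a lipid-transfer protein, fell from 227 ± 49.5 CPM to 24.6 ± 5.82 CPM (SD, n = 5), which is -3.20 (SE 0.19, adjusted p = 1.75e-05 by edgeR) on the log2 scale, and overlaps AT3G58540 on the opposite strand. The ABC transporter gene ABCA8 fell from 38.3 ± 8.18 to 7.88 ± 1.43 CPM (log2 -2.29, SE 0.17, adjusted p = 4.45e-05 by edgeR).

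The other falls among the 15 largest ran from -3.48 for AT5G43690, a gene of the P-loop hydrolase superfamily, and -3.34 for AT1G23200, of the pectin methylesterase inhibitor superfamily, to -1.65 for the hydrolase gene AT2G18360. Between them were AT3G09950 (-2.03), the heat shock factor gene HSFB3 (-2.01), FAR1 (-1.92), the amyrin synthase gene BAS (-1.87), AT2G18370 (-1.79) and AT5G14360 (-1.77), with edgeR adjusted p values from 1.75e-05 to 0.00453. All 15 were lower in every library labelled myb67 than in any WT library, and kept their call in each of the 10 fits that left out 1 library. In CPM, the largest loss was that of the peroxidase gene AT2G38390, which had 689, 749, 642, 482 and 586 CPM in WT and 418, 274, 400.2, 228 and 247 CPM in libraries labelled myb67. Its log2 fold change was -1.01 (SE 0.18, adjusted p = 0.0348 by edgeR), a call that held without WT replicate 4, myb67 replicate 1 or myb67 replicate 3 and was lost without any other library (edgeR adjusted p up to 0.0955), while with pairs it held throughout.

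The largest rise by fold was that of an ABC transporter gene. ABCG31 (AT2G29940, chr2:12759973-12766794, plus strand), known from the pollen coat, had 0.810, 0.455, 0.899, 0.903 and 0.839 CPM in WT replicates 1 to 5 and 9.09, 6.69, 9.05, 5.83 and 7.55 CPM in the libraries labelled myb67. The lowest mutant library lay above the highest WT library by more than the spread of either group, and the level was 9.74-fold higher (log2 3.28, SE 0.20, adjusted p = 1.75e-05 by edgeR). PUM12 (AT5G56510, chr5:22880687-22884087, plus strand), which encodes an RNA-binding Pumilio protein, rose from 0.913 ± 0.327 to 5.13 ± 1.26 CPM (SD, n = 5; log2 2.47, SE 0.25, adjusted p = 0.000647 by edgeR). AT1G20680 (3.23), the kelch-repeat gene AT5G40680 (3.17) and AT5G37320 (2.23) stayed under 5 CPM in all 10 libraries. Among the others were AT5G52390 (2.31), the ABC transporter gene ABCG17 (2.03), the protein phosphatase gene AT4G32950 (2.02), the actin family gene AT2G42170 (1.98), the lectin gene AT1G60095 (1.98), AT3G55870 (1.76), the receptor-like protein gene RLP6 (1.76) and the RING finger gene AT2G01810 (1.75), with edgeR adjusted p values up to 0.0457. The call of ABCG17 held without myb67 replicate 4 alone and that of AT3G55870 without WT replicate 5 alone. Both were lost without any other library (edgeR adjusted p up to 0.117), and both held throughout with pairs.

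MLP-300B (AT3G16440, chr3:5585872-5587798, plus strand), which encodes a myrosinase-binding protein-like lectin, combined a large fold with a large gain in level. It had 42.8, 51.6, 46.8, 35.3 and 48.4 CPM in WT and 223, 139, 209, 115 and 124 CPM in the libraries labelled myb67. Replicates 1 and 3 of the mutant line were the highest, and the log2 fold change was 1.85 (SE 0.19, adjusted p = 0.000795 by edgeR). In experiment 1 it was 0.40 (edgeR adjusted p = 0.035), and the difference between the experiments passed (edgeR adjusted p = 0.00417). CSLB01, of the cellulose synthase-like family, rose from 3.43 ± 0.536 to 11.04 ± 3.34 CPM (SD, n = 5; log2 1.68, SE 0.20, adjusted p = 0.00207 by edgeR), where experiment 1 had -0.03 and the difference also passed (edgeR adjusted p = 0.00117). The other large gains in level were those of ABCG2 with its antisense partner, AT5G09480 of the hydroxyproline-rich glycoprotein family (180.3 ± 30.6 to 267 ± 22.6 CPM; log2 0.57, SE 0.11, adjusted p = 0.0497 by edgeR) and the sugar porter family gene AT5G18840 (72.4 ± 9.04 to 131 ± 31.5 CPM; log2 0.86, SE 0.16, adjusted p = 0.0355 by edgeR). Leaving out any 1 library ended the call of AT5G09480 (edgeR adjusted p up to 0.135), whose groups did not overlap, and leaving out any but myb67 replicate 2 ended that of AT5G18840 (up to 0.116). The groups of AT5G18840 overlapped. With pairs both calls held in every fit.

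**Figure D2:**
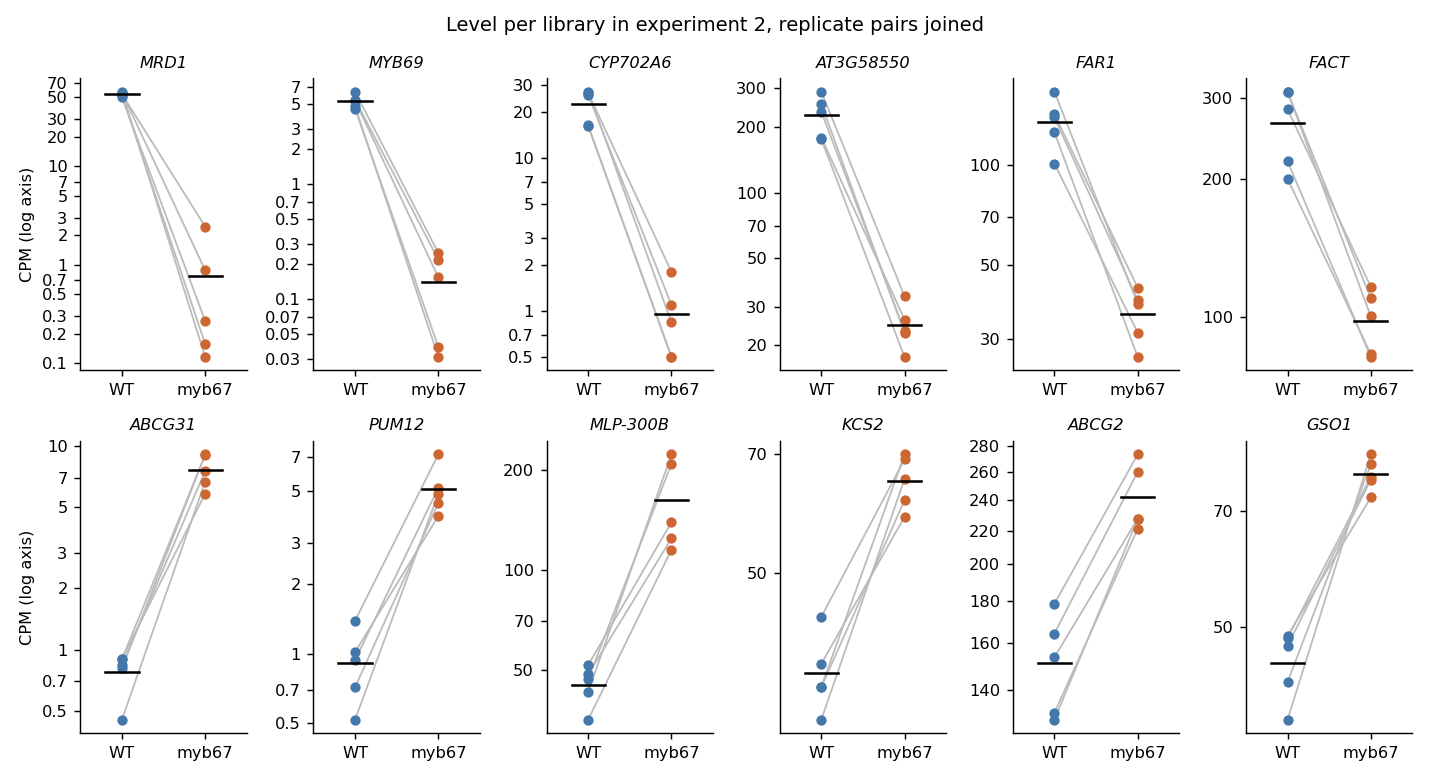
CPM per library (logarithmic vertical axis, each panel with its own range) of 12 called genes in WT and in libraries labelled myb67, with lines joining libraries of the same replicate number and a black bar at each mean. The groups do not overlap in any panel, and the replicate 2 point of MRD1 stands above the other mutant points.

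Genes of suberin synthesis and export split in direction. Of 23 tested, 2 fell (FAR1 and FACT), 2 rose (KCS2 and ABCG2) and 19 did not pass without pairs. With pairs 10 rose, 3 fell and 10 did not pass. The median log2 fold change of the 23 was 0.25, beside 0.004 over all genes tested. In each fit that left out 1 pair, 5 to 12 rose and 3 fell, and without pairs 4 and 5, 3 rose and 3 fell. Over all genes tested, 0.618% were called without pairs and 7.39% with pairs. These shares are the background for the counts of every list below.

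The falls lay in the branch that makes fatty alcohols and their caffeate esters. FAR1 (AT5G22500, chr5:7470328-7474133, plus strand), the reductase that forms primary fatty alcohols, had 142, 166, 139, 101.1 and 126 CPM in WT and 42.8, 38.3, 39.4, 31.4 and 26.5 CPM in the libraries labelled myb67. The highest mutant library held less than the lowest WT library by more than the range of the mutant group, and the log2 fold change was -1.92 (SE 0.15, adjusted p = 8.73e-05 by edgeR). FACT (AT5G63560, chr5:25449311-25451419, plus strand), the acyltransferase that joins caffeate to fatty alcohols, had 308, 309, 283, 199.8 and 218 CPM in WT and 109.9, 100.4, 116, 83.1 and 82.0 CPM in libraries labelled myb67, again without overlap (log2 -1.42, SE 0.15, adjusted p = 0.000685 by edgeR). FAR4, the reductase of a different chain length, had 94.2 ± 21.1 CPM in WT and 71.7 ± 6.97 CPM in libraries labelled myb67 with overlapping groups, and fell with pairs only (-0.37, SE 0.07, adjusted p = 0.0106 by edgeR). FAR5, another reductase of the family in suberin, was higher with pairs (0.27, SE 0.07, adjusted p = 0.0316 by edgeR), a call lost without pair 1 or 3. In experiment 1 its fold was -0.01.

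The rises were smaller. KCS2 (AT1G04220, chr1:1119699-1122786, minus strand), an elongase of very-long-chain acyl groups, had 44.2, 36.3, 38.7, 36.3 and 33.1 CPM in WT and 69.0, 69.9, 58.6, 61.4 and 65.2 CPM in libraries labelled myb67. All 5 mutant libraries lay above all WT libraries, with a log2 fold change of 0.78 (SE 0.08, adjusted p = 0.000647 by edgeR). Its span overlaps AT1G04210 on the opposite strand. ABCG2 (AT2G37360, chr2:15673410-15675920, minus strand), an exporter of suberin precursors, had 164, 154, 179, 129 and 131 CPM in WT and 259.9, 228, 273, 227 and 221 CPM in libraries labelled myb67, with no overlap (log2 0.68, SE 0.10, adjusted p = 0.00883 by edgeR). Nearly its whole span is shared with the RNA gene AT2G37362 on the opposite strand, which had 139.7 ± 19.4 and 223 ± 20.8 CPM (SD, n = 5; log2 0.67, SE 0.10, adjusted p = 0.00782 by edgeR), and their reads cannot be told apart.

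With pairs only, the omega-hydroxylase gene CYP86A1 rose from 357 ± 75.1 to 504 ± 46.2 CPM (SD, n = 5; 0.52, SE 0.08, adjusted p = 0.00241 by edgeR; without pairs, edgeR adjusted p = 0.188). The glycerol acyltransferase gene GPAT5 had 57.2 ± 12.2 and 77.1 ± 6.14 CPM (0.45, SE 0.08, adjusted p = 0.00646 by edgeR; without pairs, 0.288). WT replicates 4 and 5 were the lowest libraries of both genes, and their groups overlapped. CYP86A1 and GPAT5 kept their call without any 1 pair. The feruloyl transferase gene ASFT (0.39), the esterase genes AT5G37690 (0.38) and AT1G74460 (0.37), the acyltransferase gene GPAT7 (0.29) and the exporter gene ABCG20 (0.25) also passed with pairs, with edgeR adjusted p values from 0.0155 to 0.0475. Each lost that call in at least 1 fit that left out a pair: ASFT without pair 2 or 5, AT5G37690 without pair 5, AT1G74460 and ABCG20 without pair 2, 4 or 5, and GPAT7 without any but pair 1. The hydroxylase gene CYP86B1 had 0.28 (SE 0.09, adjusted p = 0.103 by edgeR) with pairs and the exporter gene ABCG6 0.25 (SE 0.08, adjusted p = 0.0773 by edgeR). The acyl activating gene LACS2, AT2G48130 and the esterase gene AT2G23540 had 0.23 to 0.30. KCS1, KCS20, ABCG1, ABCG11 and ABCG16 had log2 fold changes of -0.24 to 0.06, and none of these 10 passed with pairs. In experiment 1 the median fold of the 23 genes was 0.06, with 1 higher and 3 lower.

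**Figure D3:**
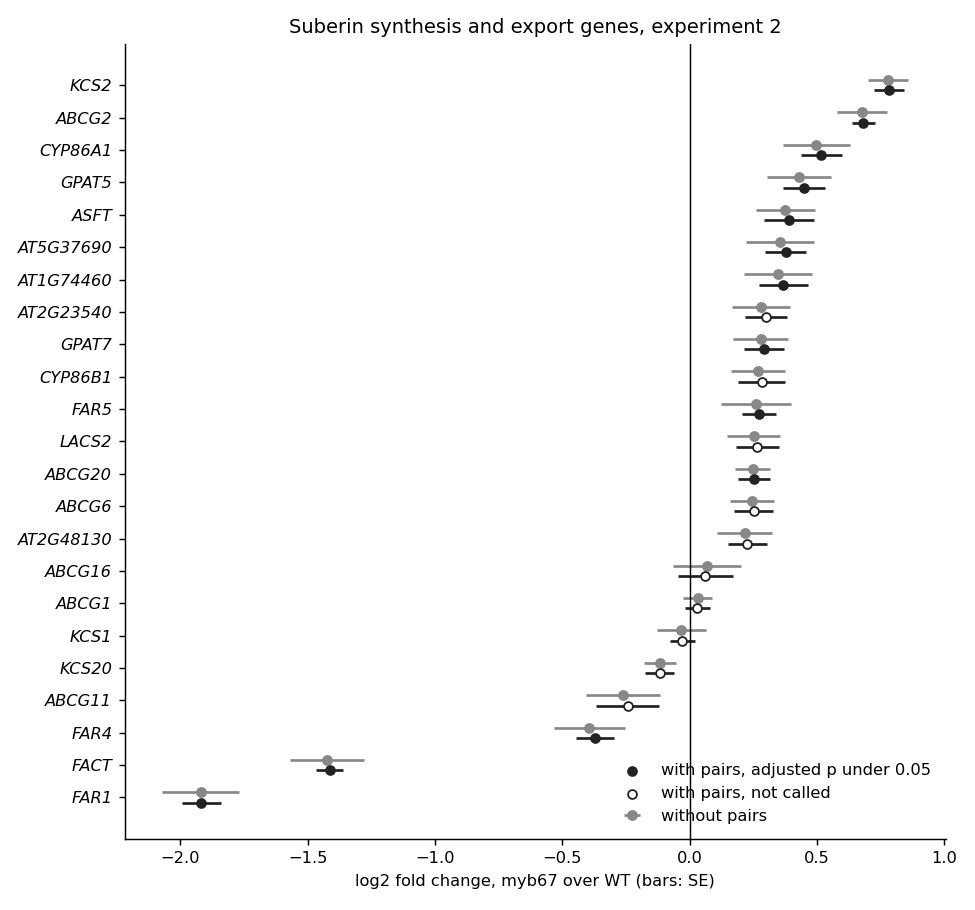
Log2 fold change (horizontal axis, bars are SE) of the 23 tested suberin genes in experiment 2, without pairs (grey) and with pairs (black, filled where the adjusted p was under 0.05). FAR1 and FACT stand far below 0, FAR4 lies between them and 0, and 10 genes above 0 are filled.

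The 250 bases before the annotated start of these 4 suberin genes, called in opposite directions without pairs, are shown to compare them, with those of the neighbours AT2G18360 and AT2G18370, which fell together. The sequences are RefSeq TAIR10.1 and are written 5′ to 3′ on the strand of the gene. Capitals mark AC elements, known as binding sites of several plant R2R3 MYB proteins, on either strand. The element AC-I reads ACCTACC. Element AC-II, which differs in the middle, reads ACCAACC. The letters of element AC-III are ACCTAAC. FAR1 lies at chr5:7470078-7470327, plus strand, FACT at chr5:25449061-25449310, plus strand, KCS2 at chr1:1122787-1123036, minus strand, ABCG2 at chr2:15675921-15676170, minus strand, AT2G18360 at chr2:7979431-7979680, minus strand and AT2G18370 at chr2:7980282-7980531, plus strand.
FAR1: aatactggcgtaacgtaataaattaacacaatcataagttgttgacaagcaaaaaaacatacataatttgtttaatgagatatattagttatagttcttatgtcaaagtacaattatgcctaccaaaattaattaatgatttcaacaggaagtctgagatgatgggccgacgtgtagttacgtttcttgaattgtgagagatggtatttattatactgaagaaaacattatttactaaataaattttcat
FACT: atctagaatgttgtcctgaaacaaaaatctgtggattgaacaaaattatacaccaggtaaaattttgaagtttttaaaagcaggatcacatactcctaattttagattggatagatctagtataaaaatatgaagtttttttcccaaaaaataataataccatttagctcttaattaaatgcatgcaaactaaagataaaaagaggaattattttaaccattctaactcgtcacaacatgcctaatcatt
KCS2: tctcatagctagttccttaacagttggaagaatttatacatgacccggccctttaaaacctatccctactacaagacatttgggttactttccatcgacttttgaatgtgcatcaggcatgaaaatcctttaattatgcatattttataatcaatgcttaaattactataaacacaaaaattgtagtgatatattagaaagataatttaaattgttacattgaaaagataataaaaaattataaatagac
ABCG2: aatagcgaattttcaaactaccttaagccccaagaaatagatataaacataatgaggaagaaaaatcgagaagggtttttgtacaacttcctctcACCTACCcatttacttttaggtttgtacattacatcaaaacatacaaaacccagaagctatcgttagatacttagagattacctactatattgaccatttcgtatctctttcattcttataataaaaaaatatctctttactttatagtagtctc
AT2G18360: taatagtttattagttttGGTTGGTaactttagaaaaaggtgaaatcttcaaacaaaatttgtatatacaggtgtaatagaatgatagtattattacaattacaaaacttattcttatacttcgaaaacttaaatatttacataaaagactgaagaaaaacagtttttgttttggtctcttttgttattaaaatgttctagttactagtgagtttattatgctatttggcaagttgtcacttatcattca
AT2G18370: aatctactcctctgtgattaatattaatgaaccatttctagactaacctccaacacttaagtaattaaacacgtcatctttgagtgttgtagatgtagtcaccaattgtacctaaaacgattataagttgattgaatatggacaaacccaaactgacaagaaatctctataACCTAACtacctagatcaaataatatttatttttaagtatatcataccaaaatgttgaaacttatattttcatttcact

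ABCG2, AT2G18360 and AT2G18370 held 1 AC element each, which in AT2G18360 lies on the other strand and so reads GGTTGGT, and FAR1, FACT and KCS2 held none of these letters in this window. At least 1 AC element was present in 6.24% of the 21916 promoters of tested genes. It was present in 8 of the 65 genes called higher without pairs (12.3%) and in 6 of the 69 called lower that had a promoter read (8.70%). With pairs the shares were 8.65% of 659 higher and 6.65% of 963 lower genes. AC-I alone was in 1.22% of all promoters, in 4 of the 65 genes higher without pairs (6.15%) and in 2 of the 69 lower (2.90%), and with pairs in 2.12% of the higher and 2.18% of the lower genes. AC-II was in 2.77% of all promoters, in 4.62% of the higher (3 of 65) and in 1.45% of the lower genes (1 of 69) called without pairs. The corresponding shares of AC-III were 2.41%, 1.54% (1 of 65) and 4.35% (3 of 69). With pairs AC-II was in 3.49% of the higher and 2.60% of the lower genes. AC-III was then in 3.19% of the higher and 1.97% of the lower genes, the opposite order to that without pairs. The G-box CACGTG, bound by bZIP and bHLH factors, was in 7.10% of all promoters, in 9.10% of the genes higher with pairs and in 4.26% of those lower with pairs. The heat shock element GAANNTTC was in 9.34% of all promoters, in 10.5% of the higher and in 9.76% of the lower genes called with pairs. Both strands were searched for each of these, matches of different AC elements can overlap by a few bases, and a promoter with several counts once. A match describes letters and no binding was measured, and the lack of a match says only that these letters are not in this window.

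AT2G18360 and AT2G18370 stand next to each other and point away from each other on chromosome 2. AT2G18370, which encodes a lipid-transfer protein, had 211, 231, 224, 163 and 167 CPM in WT and 50.3, 63.7, 61.4, 60.4 and 51.8 CPM in libraries labelled myb67 (log2 -1.79, SE 0.12, adjusted p = 1.75e-05 by edgeR). AT2G18360, of the alpha/beta hydrolase superfamily, had 61.4, 60.1, 60.8, 47.6 and 44.1 CPM and 16.6, 19.8, 18.4, 17.77 and 15.0 CPM (log2 -1.65, SE 0.11, adjusted p = 2.34e-05 by edgeR). In both genes WT replicates 4 and 5 were the lowest of WT, and the mutant libraries lay within a narrow range far below them.

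Regulators of suberin had 13 positive folds of 17 tested. Of the 17, 1 rose without pairs (the NAC gene NAC038), and 4 rose and 1 fell with pairs. The median was 0.16. NAC038 had 37.1, 39.4, 39.4, 28.2 and 29.6 CPM in WT and 63.2, 52.7, 63.7, 45.3 and 48.1 CPM in libraries labelled myb67, with no overlap (log2 0.65, SE 0.13, adjusted p = 0.0466 by edgeR). That call held without myb67 replicate 4 alone and was lost without any other library (edgeR adjusted p up to 0.135), and held throughout with pairs. With pairs only, 3 MYB genes of the list rose: MYB93 by 0.36 (SE 0.08, adjusted p = 0.0147 by edgeR), MYB107 by 0.36 (SE 0.08, adjusted p = 0.0222 by edgeR) and MYB9 by 0.36 (SE 0.09, adjusted p = 0.0314 by edgeR). MYB93 lost that call without pair 5, and MYB107 and MYB9 without pair 2, 4 or 5. The fall was that of NAC046 (-0.31, SE 0.08, adjusted p = 0.0344 by edgeR), which is outside the rule for named genes and was chosen after its values were seen. The other 12 regulators did not pass. With 1 pair left out 1 to 5 rose and 0 to 1 fell, and without pairs 4 and 5, 1 rose and none fell. In experiment 1 the median fold of 16 regulators was 0.10.

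In the endodermis and Casparian strip list, 1 of 15 tested genes rose without pairs, 2 rose and 1 fell with pairs, and the median was -0.23. The riser was GSO1 (AT4G20140, chr4:10883921-10888270, plus strand), the receptor kinase that surveys the integrity of the Casparian strip. It had 48.6, 48.4, 47.3, 42.5 and 38.1 CPM in WT and 72.9, 77.4, 76.8, 80.3 and 82.7 CPM in libraries labelled myb67. The mutant libraries lay within a narrow range above all WT libraries (log2 0.79, SE 0.07, adjusted p = 0.000246 by edgeR), and experiment 1 gave 0.52 (edgeR adjusted p = 0.00151). GSO1 overlaps AT4G20150 on the opposite strand. SCR, a transcription factor of endodermal identity, was lower with pairs (-0.49, SE 0.11, adjusted p = 0.0228 by edgeR), a call lost without pair 1, 3 or 4. In experiment 1 SCR had the opposite sign (0.25, edgeR adjusted p = 0.715), and the median of the 15 genes was 0.17. The level of the whole list differed by replicate in both genotypes. Its mean log2 CPM was 3.47 and 3.14 in the WT and mutant libraries numbered 1, 3.52 and 3.67 in those numbered 3, and 3.89 to 4.53 in the other 6.

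Among the lipid-transfer proteins, 4 of 11 tested fell without pairs, the same number fell and 1 rose with pairs, and the median was -0.385. This was the largest share of falls without pairs among the 32 lists. Those lists were chosen with earlier results of these data known, so the rank is descriptive only. The 4 that fell are AZI1, EARLI1, AT4G12490 and AT4G12500, neighbours on chromosome 4. They share sequence, so their reads may be split between them. EARLI1 (AT4G12480, chr4:7406065-7406994, minus strand), known from cold and pathogen responses, had 79.6, 102, 85.0, 66.5 and 73.5 CPM in WT and 19.4, 35.4, 25.6, 29.1 and 23.1 CPM in libraries labelled myb67 (log2 -1.62, SE 0.16, adjusted p = 0.000512 by edgeR). AZI1, which takes part in systemic defence priming, fell from 38.5 ± 2.26 to 15.5 ± 3.89 CPM (SD, n = 5; log2 -1.32, SE 0.13, adjusted p = 0.000649 by edgeR). AT4G12490 had -1.52 (SE 0.20, adjusted p = 0.00333 by edgeR) and AT4G12500 -1.39 (SE 0.18, adjusted p = 0.00333 by edgeR). The groups did not overlap for any of the 4. In experiment 1 EARLI1 was called (-1.03, with edgeR adjusted p = 0.0228), and the other 3 had -1.44, -0.57 and -0.70, none of them called. AT3G58550 (-3.20) and AT2G18370 (-1.79), which also encode lipid-transfer proteins, are not members of this list and are described above.

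Of 18 tested triterpene genes, 3 fell without pairs and 4 with pairs, none rose, and the median was -0.17. They were CYP702A6, described above, BAS and LAS1, and with pairs THAS1. BAS, an oxidosqualene cyclase that forms amyrin, had 3.34, 5.49, 4.21, 5.68 and 7.23 CPM in WT and 1.19, 2.02, 1.36, 1.35 and 1.16 CPM in libraries labelled myb67 (log2 -1.87, SE 0.23, adjusted p = 0.0025 by edgeR). LAS1, the lanosterol synthase, fell from 5.66 ± 0.860 to 3.11 ± 0.583 CPM (SD, n = 5; log2 -0.86, SE 0.15, adjusted p = 0.0317 by edgeR), a call that held without WT replicate 1 or myb67 replicate 2 or 5 and was lost without any other library (edgeR adjusted p up to 0.0947). THAS1, the thalianol synthase, had -0.49 (SE 0.11, adjusted p = 0.0161 by edgeR) with pairs, lost without pair 1 or 3, and its levels in WT and mutant replicate 2 were in the opposite order (127 to 131 CPM). The sterol cyclase gene CAS1 (0.03) and the lupeol synthase gene LUP1 (0.07) did not pass either test. Among 8 tested ABC transporters of subfamily A, ABCA8 fell and with pairs ABCA2 as well (-0.22, SE 0.04, adjusted p = 0.00591 by edgeR), with a median of -0.29.

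Of 29 tested cutin and wax genes, 2 rose without pairs, 2 rose and 5 fell with pairs, and the median was -0.27. With 1 pair left out 0 to 6 fell, without pairs 4 and 5 none did, and in DESeq2 with pairs 7 did. Both risers belong to the cutin branch, which shares enzyme families with suberin. GPAT6, a glycerol acyltransferase, had 53.2, 43.3, 54.1, 41.5 and 35.9 CPM in WT and 69.2, 75.8, 79.1, 69.9 and 73.1 CPM in libraries labelled myb67 without overlap (log2 0.69, SE 0.10, adjusted p = 0.0107 by edgeR). CYP86A2, an acyl hydroxylase, rose from 45.7 ± 1.88 to 55.8 ± 3.60 CPM (SD, n = 5; log2 0.29, SE 0.05, adjusted p = 0.0376 by edgeR), a call that held without myb67 replicate 1 alone (edgeR adjusted p up to 0.118 without another library). CYP86A2 overlaps AT4G00370 on the opposite strand. MYB30, a regulator of wax synthesis, was lower with pairs (-0.39, SE 0.08, adjusted p = 0.0135 by edgeR), lost without pair 5, and the wax elongase gene KCS6 likewise (-0.39, SE 0.10, adjusted p = 0.0346 by edgeR), lost without pair 2, 4 or 5.

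**Figure D4:**
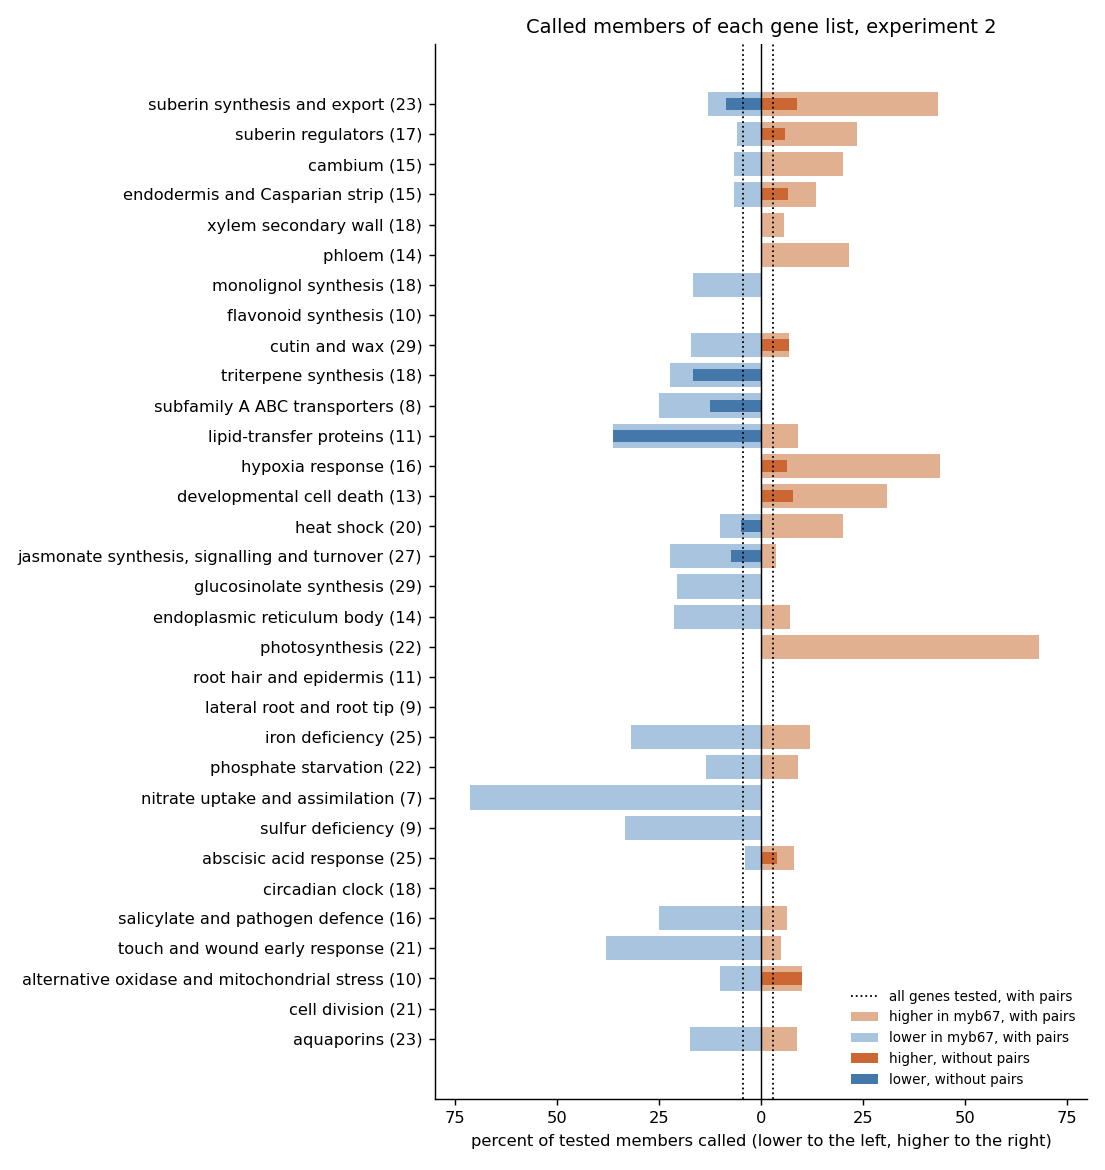
Percent of the tested members of each of 32 gene lists called higher (right) or lower (left) in libraries labelled myb67 in experiment 2, with pairs (pale, wide bars) and without (dark, narrow bars), with the number tested in brackets. Dotted lines mark 3.00% and 4.40%, the shares of all genes tested with pairs; photosynthesis (15 of 22 higher) and nitrate (5 of 7 lower) have pale bars and no dark ones.

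Other lists held calls mostly with pairs in the model. Photosynthesis genes had 15 of 22 tested members higher with pairs and none without, and their median log2 fold change was 0.23. The share called with pairs was 68.2%, beside 7.39% of all genes tested. RBCS1A, a small subunit gene of Rubisco, had 600.5, 457, 596, 418 and 399 CPM in WT and 739, 527, 697, 551 and 546 CPM in libraries labelled myb67. Each mutant library exceeded its WT partner and the groups overlapped (0.32, SE 0.05, adjusted p = 0.00176 by edgeR with pairs, against adjusted p = 0.703 without). Summed over the list, levels were 3126.3 to 4636.2 CPM in WT and 3925.9 to 5472.1 CPM in libraries labelled myb67. With 1 pair left out 6 to 17 members rose, and with pairs 4 and 5 left out 2 did. In experiment 1 all 15 called members had the opposite sign, and the median of 18 members was -0.98 with none called. There the list summed to 1805.9 and 2287.9 CPM in WT replicates 3 and 6 and to 459 to 701 CPM in the other 10 libraries. The part of shoot tissue in these values was not tested.

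The hypoxia list had 1 of 16 tested members higher without pairs and 7 with, none lower, with a median of 0.23. PDC1, the pyruvate decarboxylase of fermentation, had 18.9, 15.0, 18.9, 15.1 and 15.2 CPM in WT and 25, 21.4, 24.7, 21.7 and 22.7 CPM in libraries labelled myb67, with no overlap (log2 0.47, SE 0.09, adjusted p = 0.037 by edgeR). Its call held without WT replicate 1 or 3 and was lost without any other library (edgeR adjusted p up to 0.122). The sucrose synthase gene SUS4 (0.47, SE 0.06, adjusted p = 0.00043 by edgeR), the transcription factor gene LBD41 (0.30, SE 0.05, adjusted p = 0.00331 by edgeR) and the oxygen-sensing cysteine oxidase gene PCO2 (0.47, SE 0.10, adjusted p = 0.0112 by edgeR) followed with pairs, the last lost without pair 1. After removal of pairs 4 and 5, 2 members rose. In experiment 1 SUS4 and LBD41 had -0.17 and -0.30, PDC1 had 0.16, and 3 of the 7 called members kept their sign.

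Of 13 tested genes of developmental cell death, 1 rose without pairs and 4 with, none fell, and the median was 0.13. AT2G14095, an uncharacterised gene on that list, had 6.41, 6.22, 5.83, 3.65 and 4.15 CPM in WT and 13.7, 10.9, 12.1, 8.37 and 8.09 CPM in libraries labelled myb67 (log2 1.01, SE 0.19, adjusted p = 0.0435 by edgeR). Its call held without WT replicate 1 or myb67 replicate 4 or 5 and was lost without any other library (edgeR adjusted p up to 0.133). The cysteine endopeptidase gene CEP1 had 22.1, 26.9, 17.84, 14.2 and 19.2 CPM in WT and 41.8, 27.3, 42.7, 34.2 and 32.5 CPM in libraries labelled myb67, and the groups did not overlap. Its log2 fold change was 0.83 (SE 0.17, adjusted p = 0.0595 by edgeR) without pairs, which missed the threshold, and 0.84 (SE 0.14, adjusted p = 0.00432 by edgeR) with pairs. AT4G18425 followed the same pattern (0.71, SE 0.12, adjusted p = 0.00491 by edgeR with pairs), and SCPL48 passed with pairs (0.23, SE 0.06, adjusted p = 0.026 by edgeR) and not without pair 1, 3 or 4. Without pairs 4 and 5, 5 members rose. CEP1 had 0.01 and AT4G18425 0.64 in experiment 1.

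In the heat shock list, 1 of 20 tested members fell without pairs, 4 rose and 2 fell with pairs, and the median was 0.11. The fall was that of HSFB3, a class B heat shock factor, which had 3.44, 3.57, 3.42, 2.41 and 3.43 CPM in WT and 0.575, 1.09, 0.791, 0.690 and 0.890 CPM in libraries labelled myb67 (log2 -2.01, SE 0.19, adjusted p = 0.000482 by edgeR). Its groups lay far apart, and experiment 1 gave -2.003. HSP70 was higher with pairs (0.57, SE 0.09, adjusted p = 0.00265 by edgeR), as were the chaperone gene HSP90.1 (0.34, SE 0.07, adjusted p = 0.018 by edgeR), lost without pair 5, the factor gene HSFA2 (1.05, SE 0.24, adjusted p = 0.0222 by edgeR), lost without pair 2, 3 or 4, and the disaggregase gene HSP101 (0.26, SE 0.06, adjusted p = 0.0262 by edgeR). On pairs 1 to 3 alone, 1 rose and 1 fell.

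Among nutrient uptake genes the falls passed with pairs only, and the mean level of the nitrate and iron lists was lowest in the libraries numbered 1 and 3 of both genotypes. Of 7 tested genes of nitrate uptake and assimilation, 5 fell with pairs and none without, with a median of -0.40. The nitrate reductase gene NIA1 had 454, 590.4, 525, 741 and 789.8 CPM in WT and 275, 434, 346, 554 and 427 CPM in libraries labelled myb67. Each mutant library was below its WT partner and the groups overlapped (-0.61, SE 0.06, adjusted p = 0.000203 by edgeR with pairs, against adjusted p = 0.364 without). The transceptor gene NRT1.1 (-0.43, SE 0.04, adjusted p = 0.00019 by edgeR), the nitrite reductase gene NIR1 (-0.33, SE 0.04, adjusted p = 0.00104 by edgeR) and NIA2 (-0.36, SE 0.06, adjusted p = 0.00253 by edgeR) also passed with pairs. Without pairs 4 and 5 the count stayed at 5. In experiment 1 these 4 had -0.02 to 0.16, none of them called, and the median of the 7 was -0.02. Of the 5 members called with pairs, 4 had the same sign there.

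In the iron deficiency list, 8 of 25 tested members fell and 3 rose with pairs, none passed without, and the median was -0.03. In DESeq2 with pairs 6 fell and none rose. The regulator FRU (FIT in other usage) had 3.88, 12.1, 7.19, 13.7 and 14.9 CPM in WT and 2.26, 8.496, 3.78, 9.46 and 9.09 CPM in libraries labelled myb67. Libraries numbered 1 and 3 were the lowest of both genotypes, and every mutant library was below its partner (-0.67, SE 0.08, adjusted p = 0.000598 by edgeR with pairs, against adjusted p = 0.859 without). NAS1, a nicotianamine synthase gene (-0.51, SE 0.04, adjusted p = 2e-05 by edgeR), the coumarin exporter gene ABCG37 (-0.36, SE 0.04, adjusted p = 0.000314 by edgeR) and the vacuolar metal transporter gene IREG2 (-0.80, SE 0.10, adjusted p = 0.000572 by edgeR) fell likewise. Of 10 called members tested in experiment 1, 3 had the same sign there, and 7 of the tested members differed between experiments with pairs and none without. In the phosphate starvation list 3 fell and 2 rose of 22 with pairs (median 0.04), and 1 to 2 fell in each fit that left out 1 pair. In experiment 1, 2 of its 5 called members had the same sign, as did 1 of 3 in the sulfur list. With pairs, 4 of the tested phosphate members differed between experiments. The phosphate transporter gene PHT1;1 had 32.3, 90.4, 53.4, 78.8 and 79.9 CPM in WT and 17.64, 57.7, 29.2, 46.2 and 52.5 CPM in libraries labelled myb67 (-0.74, SE 0.05, adjusted p = 6.87e-06 by edgeR with pairs), and the pyrophosphatase gene PS2 was higher (0.92, SE 0.15, adjusted p = 0.00328 by edgeR). In the sulfur list 3 of 9 fell with pairs (median 0.02): LSU1 (-0.97, SE 0.12, adjusted p = 0.000743 by edgeR), SULTR1;2 (-0.27, SE 0.05, adjusted p = 0.00811 by edgeR) and SULTR1;1 (-0.62, SE 0.13, adjusted p = 0.0146 by edgeR), the last lost without pair 1 or 3.

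The root hair and epidermis list, whose cells take up these nutrients, varied more between replicates than between genotypes. Its mean log2 CPM over 11 genes was 1.94, 2.87, 0.98, 2.94 and 2.66 in WT replicates 1 to 5 and 1.01, 3.00, 1.13, 2.80 and 1.65 in libraries labelled myb67. Replicate 3 was low in both genotypes, replicates 2 and 4 were high in both, and the mutant library was above its WT partner in 2 of 5 pairs. None of the 11 genes passed with or without pairs, all 11 had a negative fold, and the median was -0.26. In experiment 1 the median of the 11 was 0.20. RHD6, a regulator of root hair fate, had 2.67 ± 1.23 CPM in WT and 2.39 ± 1.16 CPM in libraries labelled myb67 (SD, n = 5; log2 -0.15, SE 0.41, adjusted p = 0.979 by edgeR). RHD6 is outside the rule for named genes, and the marker set for this list was COBL9. The part of epidermal cells in the nutrient lists was not tested. None of the 9 genes of lateral roots and root tips passed either (median -0.20).

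**Figure D5:**
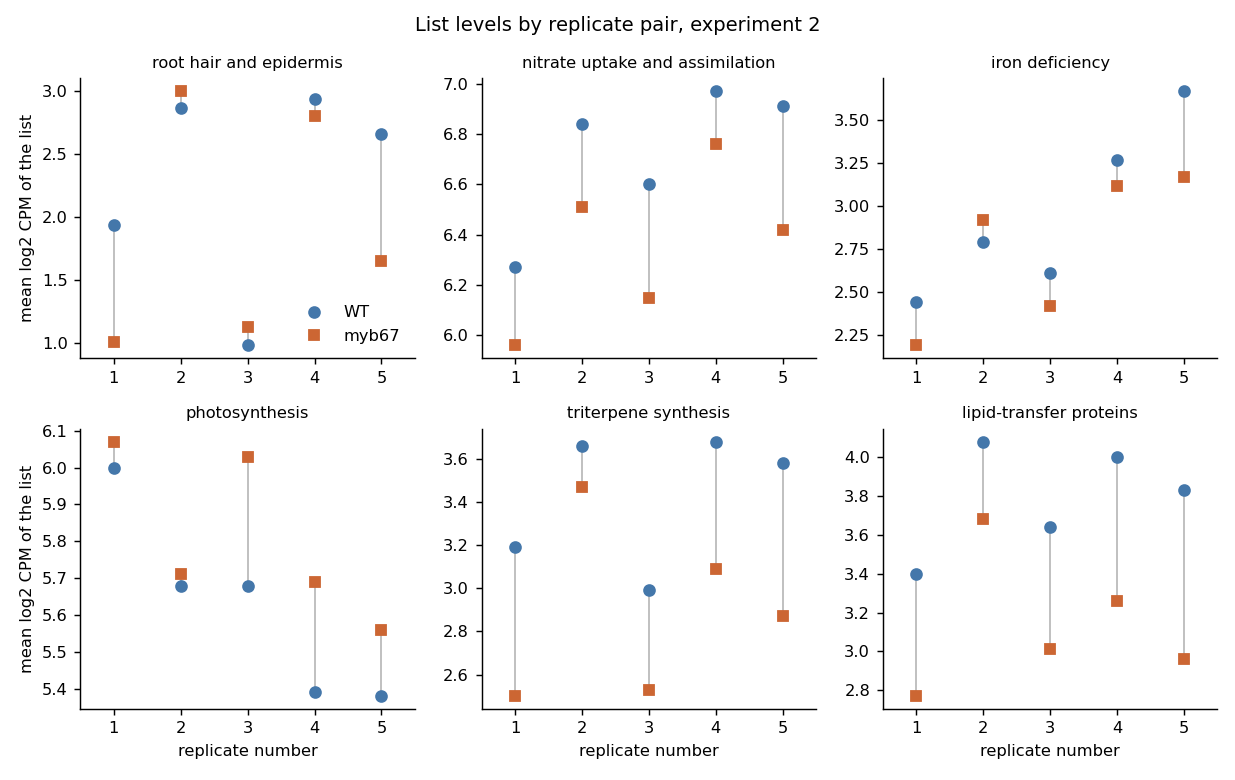
Mean log2 CPM of 6 gene lists (vertical axes of different range) by replicate number in WT (circles) and in libraries labelled myb67 (squares), with grey lines joining each pair. The root hair, nitrate and iron lists are lowest in the libraries numbered 1 and 3 of both genotypes, while the squares lie below the circles in all 5 pairs for the nitrate, triterpene and lipid-transfer lists and above them in all 5 for photosynthesis.

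Defence and wound lists had more falls than rises with pairs. Of 27 tested jasmonate genes, 2 fell without pairs, 6 fell and 1 rose with pairs, and the median was -0.095. LOX2, a lipoxygenase of jasmonate synthesis, had 6.51, 4.54, 3.96, 2.56 and 4.59 CPM in WT and 2.34, 1.51, 2.02, 1.25 and 1.35 CPM in libraries labelled myb67 (log2 -1.39, SE 0.25, adjusted p = 0.0348 by edgeR). Its call held without WT replicate 4 or myb67 replicate 1 and was lost without any other library (edgeR adjusted p up to 0.095). VSP1, a vegetative storage protein gene that responds to jasmonate, fell from 194 ± 11 to 140.0 ± 15.5 CPM (SD, n = 5; log2 -0.47, SE 0.07, adjusted p = 0.015 by edgeR), lost only without myb67 replicate 3 (edgeR adjusted p = 0.0551). Its relative VSP2 was higher with pairs (0.38, SE 0.06, adjusted p = 0.00332 by edgeR). Of 6 called jasmonate members tested in experiment 1, 3 kept their sign. LOX2 lies next to LAS1 on chromosome 3. Among 21 genes of early touch and wound responses, 8 fell and 1 rose with pairs and none passed without (median -0.30). WRKY33 had -0.51 (SE 0.05, adjusted p = 0.00019 by edgeR), ERF6 -0.41 (SE 0.06, adjusted p = 0.00103 by edgeR), TCH3 -0.57 (SE 0.08, adjusted p = 0.00167 by edgeR) and ERF5 -0.40 (SE 0.06, adjusted p = 0.00237 by edgeR). In experiment 1, 6 of the 9 called members kept their sign. Of 16 salicylate and pathogen defence genes, 4 fell and 1 rose with pairs (median -0.12), among them PAD4 (-0.38, SE 0.06, adjusted p = 0.0017 by edgeR) and NPR3 (-0.20, SE 0.04, adjusted p = 0.00564 by edgeR).

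Of 29 tested genes of glucosinolate synthesis, 27 had a negative fold, 6 fell with pairs, none passed without, and the median was -0.17. MAM1, which elongates methionine for aliphatic glucosinolates, had 35.4, 54.1, 33.9, 45.0 and 32.2 CPM in WT and 22.2, 34.8, 25.2, 22.8 and 24.4 CPM in libraries labelled myb67. Each mutant library was below its partner (-0.63, SE 0.07, adjusted p = 0.000414 by edgeR with pairs, against adjusted p = 0.173 without). MAM3 (-0.48, SE 0.05, adjusted p = 0.000295 by edgeR), CYP83A1 (-0.53, SE 0.06, adjusted p = 0.000351 by edgeR) and BCAT4 (-0.51, SE 0.06, adjusted p = 0.00047 by edgeR), of the same branch, followed. Their folds in experiment 1 were 0.04, -0.13, -0.09 and -0.08. In the list of the endoplasmic reticulum body, a myrosinase store of Brassicaceae roots, 3 of 14 fell and 1 rose with pairs (median -0.16), led by GLL22 (-0.63, SE 0.08, adjusted p = 0.000677 by edgeR) and MEB1 (-0.21, SE 0.04, adjusted p = 0.00467 by edgeR). Of 23 aquaporins, 4 fell and 2 rose with pairs (median 0.007), with the boric acid channel gene NIP5;1 at -0.49 (SE 0.07, adjusted p = 0.00138 by edgeR) and the water channel gene PIP2;6 at -0.51 (SE 0.10, adjusted p = 0.00934 by edgeR).

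Vascular lists held calls with pairs and none without. MYB69, with a log2 fold change of -5.27, and the monolignol glucosyltransferase gene UGT72E1, lower with pairs, are not members of these lists. The shares of tested members called with pairs were 26.7% for cambium, 21.4% for phloem, 16.7% for monolignol synthesis and 5.56% for xylem, beside 7.39% of all genes tested. With pairs, 3 of 15 cambium genes rose and 1 fell, with none called without pairs and a median of 0.10. PXY, the receptor kinase of the stem cell niche of the cambium, had 0.21 (SE 0.04, adjusted p = 0.00861 by edgeR), KNAT1 0.24 (SE 0.05, adjusted p = 0.0116 by edgeR) and HB8 0.16 (SE 0.04, adjusted p = 0.0277 by edgeR), the last lost without any pair but pair 2. LBD3 had -0.33 (SE 0.08, adjusted p = 0.0317 by edgeR), lost without pair 1, 3 or 5. Without pairs 4 and 5 no cambium gene was called, and in experiment 1 the median was -0.10. Of 14 phloem genes 3 rose with pairs (median 0.15), PP2-A1 (0.26, SE 0.04, adjusted p = 0.00547 by edgeR), SEOR1 (0.19, SE 0.04, adjusted p = 0.0164 by edgeR) and SEOA (0.20, SE 0.05, adjusted p = 0.0207 by edgeR), with folds of -0.11, -0.09 and -0.09 in experiment 1. SEOR1 was lost without pair 1 or 5 and SEOA without pair 1, 4 or 5, so that 1 to 3 phloem genes rose with 1 pair left out, and none did without pairs 4 and 5. Of 18 xylem secondary wall genes 1 rose with pairs, MYB52 (0.43, SE 0.07, adjusted p = 0.00446 by edgeR; median 0.10), and of 18 monolignol genes 3 fell, led by 4CL5 (-0.33, SE 0.07, adjusted p = 0.0148 by edgeR), lost without pair 1 or 5, and CCR1 (-0.22, SE 0.05, adjusted p = 0.0151 by edgeR), lost without pair 1, 3 or 5 (median -0.04). None of 10 flavonoid genes (median -0.19), 18 circadian clock genes (median 0.015) or 21 cell division genes (median 0.008) passed with or without pairs.

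In other lists the counts with pairs also moved when 1 pair was left out. The range of rises was 1 to 3 for the endodermis, 3 to 9 for hypoxia, 2 to 4 for heat shock, 0 to 2 for iron, 1 to 2 for abscisic acid and 0 to 3 for aquaporins. The range of falls was 0 to 2 for the endodermis, 0 to 3 for monolignol synthesis, 2 to 5 for the endoplasmic reticulum body, 2 to 3 for salicylate defence, 2 to 4 for aquaporins, 1 to 2 for heat shock, 0 to 2 for abscisic acid and 0 to 1 for alternative oxidases. In such fits up to 2 clock genes rose and 1 fell, up to 1 cell division gene rose and up to 1 flavonoid gene fell. Up to 1 triterpene gene rose, and 1 to 2 xylem genes did.

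CYP707A1, which encodes a hydroxylase that breaks down abscisic acid, rose as the only member of the abscisic acid list called without pairs (1 of 25; 2 rose and 1 fell with pairs; median -0.07). It had 30.1, 28.9, 27.6, 24.7 and 22.6 CPM in WT and 57.7, 48.4, 55.6, 47.7 and 40.8 CPM in libraries labelled myb67. The groups did not overlap (log2 0.90, SE 0.10, adjusted p = 0.00171 by edgeR). In experiment 1 it had 0.16, and the difference between the experiments passed (edgeR adjusted p = 0.0157). AOX1D, an alternative oxidase gene of mitochondria, was the only member called without pairs among 10 of its list (1 rose and 1 fell with pairs; median 0.05). It had 0.641, 1.68, 1.11, 0.602 and 1.398 CPM in WT and 2.76, 3.91, 3.56, 2.63 and 3.02 CPM in libraries labelled myb67 (log2 1.54, SE 0.27, adjusted p = 0.0295 by edgeR). Its call held without WT replicate 1 or 2 or myb67 replicate 1 and was lost without any other library (edgeR adjusted p up to 0.0885).

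The genes of smallest p among those called with pairs only show the pattern of pairs most plainly. UGT72E1, a glucosyltransferase gene of monolignols, had 55.7, 129.6, 80.2, 106 and 108 CPM in WT and 34.3, 68.8, 48.7, 67.9 and 62.9 CPM in libraries labelled myb67. The replicates of WT spanned more than 2-fold, and each mutant library was below its WT partner (-0.75, SE 0.04, adjusted p = 3.13e-06 by edgeR with pairs, against adjusted p = 0.323 without; 0.03 in experiment 1). ABCB15 (-0.63, SE 0.04, adjusted p = 7.9e-06 by edgeR), the receptor kinase genes AT2G28960 (-0.61, SE 0.04, adjusted p = 1.4e-05 by edgeR) and AT1G51860 (-0.54, SE 0.05, adjusted p = 6.23e-05 by edgeR), EXO70H2 (-0.66, SE 0.05, adjusted p = 1.56e-05 by edgeR) and the metal transporter gene ZIP2 (-0.55, SE 0.05, adjusted p = 4.58e-05 by edgeR) were also lower in all 5 pairs, and their folds in experiment 1 were 0.08, 0.23, 0.24, -0.14 and 0.06, none of them called. The other members of this set were PHT1;1 and NAS1, given above, AT4G04990 and AT4G14060.

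AT4G04990, of unknown function, was higher in every pair, with 5.81, 12.7, 9.35, 11.1 and 14.3 CPM in WT and 11.5, 26.3, 19.8, 20.3 and 28.6 CPM in libraries labelled myb67, and was called with pairs (1.00, SE 0.06, adjusted p = 2.3e-06 by edgeR) and in experiment 1 (0.92, with adjusted p = 5.5e-05). AT4G14060, of the polyketide cyclase superfamily, rose with pairs (0.53, SE 0.04, adjusted p = 2.19e-05 by edgeR) and fell in experiment 1 (-0.63, with adjusted p = 0.000925), and the difference passed without pairs (edgeR adjusted p = 0.00657). Over all genes tested, 3851 had all 5 pairs in 1 direction (17.5%). Of the genes called with pairs only, 553 of 594 and 848 of 897 did.

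Called genes lay on all 5 chromosomes, with 0.483% to 0.794% of tested genes called without pairs. Of the 200 tested genes nearest to MYB67, 100 on either side, 4 were called without pairs (2.0%) and 14 with pairs (7.0%). The 4 were AT3G11980, an acyl-CoA reductase gene known from pollen walls, the chitinase gene HCHIB with AT3G12502, which overlaps it, and the protease gene NANA. Neighbouring called genes elsewhere were MRD1 with HEI10, AT2G18360 with AT2G18370, AT2G19970 with PR-1-LIKE, ABCG2 with AT2G37362 and AT2G37370, LAS1 with LOX2, AT3G58540 with AT3G58550, and the lipid-transfer genes on chromosome 4. The members of each such run had the same direction.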

How the data were processed

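Bulk RNA-seq of upper primary roots was compared between 5 WT and 5 myb67 libraries of experiment 2. The authors deposited whole-number read counts per gene for experiment 2 and expected counts, which need not be whole, for experiment 1. The latter were rounded before testing. Per the submitters' processing notes, the tools were DESeq2 1.40.1, HOMER, STAR 2.7.10a, Trimmomatic 0.39 and FastQC, listed without roles, and the build was TAIR10. The treatment of strand, and of reads matching several genes, is not stated in those notes. Names, products, spans and promoters came from RefSeq TAIR10.1, in which 488 of 33323 genes had no locus tag.

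Genes were filtered by filterByExpr, scaled by TMM and tested in edgeR 4.0.16 under R 4.3.3 by its quasi-likelihood F test, with Benjamini-Hochberg adjustment over 22002 genes. The SE is the absolute log2 fold change divided by the square root of F. The model had genotype alone, and beside it genotype with replicate number. The numbers come from the titles. The labels say that both genotypes were sown together, not that a number marks a shared plate. Libraries of the same number were taken as pairs because all 5 same-number correlations exceeded 0.1. Some libraries of different number exceeded that value too, so the threshold alone does not single out the numbering. WT 4 correlated at 0.337 with myb67 5 and at 0.31 with its own partner. With pairs, the common dispersion was 0.00431 instead of 0.0196. The difference between experiments was a contrast of 4 group means over 22 libraries. Alternatives used DESeq2 1.42.0, limma-voom 3.58.1, other scalings, filters and left-out libraries. The tests were run on simulated data first. No 2 libraries of the same genotype agreed within sampling noise. Nothing in the labels beyond the word replicate says that samples came from separate cultures, so p-values measure the spread between these samples. Library totals of 23190477 to 32091009 counts set the precision of low levels.

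The rule for named genes took MYB67, then the 15 largest rises and the 15 largest falls called without pairs at a mean of at least 1 CPM, the 5 called rises and 5 called falls of largest CPM difference, up to 4 called members of each list by smallest p in either fit, the 10 smallest p among genes called with pairs only, and any suberin gene. Outside this rule the text also names NAC046, HSP101, CAS1, LUP1 and RHD6, the tissue markers, and genes next to or overlapping others. The comparison and the 32 gene lists (554 of 604 members tested) were chosen with earlier results of these data known. Promoters are the 250 bases before the annotated start of 21916 tested genes. Figures were drawn with matplotlib 3.10.9.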

Additional observations from a re-analysis of the deposited data

Results flagged for a closer look

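A single library stood apart from the other 4 of its genotype for 10 named genes, a pattern that chance gives in about 1 of 20 groups. Over all named genes, each with a group per genotype, that rate alone would give such cases, so they are listed only for inspection. ABCG31 was at 0.455 CPM in WT replicate 2, beside 0.81 to 0.903 CPM in the other WT libraries. HSFB3 was at 2.41 CPM in WT replicate 4, beside 3.42 to 3.57 CPM. BAS was at 2.02 CPM in myb67 replicate 2, beside 1.16 to 1.36 CPM in the other libraries labelled myb67, and AT4G12500 at 5.13 CPM in the same library, beside 2.80 to 3.25 CPM. MAM1 was at 34.8 CPM there, beside 22.2 to 25.2 CPM. MYB30 was at 8.17 CPM in myb67 replicate 1, beside 13.3 to 15.2 CPM. AZI1 was at 22.3 CPM in myb67 replicate 3, beside 12.7 to 15.1 CPM. HSFA2 was at 0.399 CPM in WT replicate 5, beside 0.899 to 1.049 CPM. SULTR1;2 was at 342 CPM in WT replicate 2, beside 255 to 279.7 CPM. AT5G37690 was at 246 CPM in myb67 replicate 5, beside 290.1 to 303 CPM.

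The genotype effect of 4 named genes differed between experiment 2 and experiment 1 in the test of that difference without pairs. MLP-300B differed by 1.44 on the log2 scale, with 1.85 in experiment 2 and 0.40 in experiment 1. CSLB01 differed by 1.70, with 1.68 and -0.03. CYP707A1 differed by 0.74, with 0.90 and 0.16. AT4G14060 differed by 1.14, with 0.52 and -0.63. Its edgeR call in experiment 2 needs the pair term.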

How the results depend on the processing

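The count of 136 called genes (65 higher, 71 lower) was 334 (157 and 177) with DESeq2, 288 (135 and 153) with the spread estimated over all 22 libraries and 63 (25 and 38) against a fold of 1.2. It was 136 with RLE size factors, 140 with upper-quartile scaling, 131 with at least 1 CPM in 5 libraries, 130 with limma-voom and 137 with no filter. Leaving out 1 library gave 77 to 136 genes (33 to 63 higher, 44 to 73 lower). With the replicate block it was 1627 (659 and 968), and in DESeq2 with the block 1336 (524 and 812). Leaving out pairs 1 to 5 in turn gave 1166, 1614, 1059, 1190 and 1032 (448, 708, 366, 370 and 330 higher, and 718, 906, 693, 820 and 702 lower). With the block, RLE factors gave 1611 (631 and 980), upper-quartile scaling 1647 (621 and 1026) and leaving out pairs 4 and 5 gave 753 (205 and 548). These last 3 were chosen after the data had been seen. Effects differed between experiments for 15 genes, 43 with DESeq2 and 573 with the replicate block. Called in both experiments in 1 direction were 50 genes, and 102 with the block. The cause of these moves was not tested.

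None of the 153 named genes reversed direction in any of these settings. Against a fold of 1.2, 16 lost their call, limma-voom lost 5, no filter 1 and all 22 libraries 1, while the block ended none and added 91. Each fit without pairs that left out 1 library ended the call of 8 to 12 named genes and added 0 to 3. Levels near 1 CPM rest on few reads, which limits the folds of the lowest genes.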
